A study of Mus musculus with 1528 samples.

Results

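The guanylate-binding proteins (Gbp) and the immunity-related GTPases (IRG) were described here by 9 genes, chosen by name: Gbp2, Gbp3, Gbp5, Gbp7, Gbp8, Gbp9 and the IRG genes Irgm1, Igtp (also called Irgm3) and Iigp1 (also called Irga6). They are 9 of 55421 genes in the count table, and 8 of the 17034 genes that had enough fragments to be tested. The cells were bone marrow-derived macrophages (BMDMs), grown with the macrophage growth factor CSF1 from the marrow of 2 wild-type C57BL/6 mice and sorted alive, as single cells, into the wells of 4 plates of 384 wells. Before sorting, all cells had received IL4 and IL13 in culture for 24 h, the cytokine pair that drives the M2 program. They received it either alone (IL4+IL13, called without TNF below) or together with TNF (IL4+IL13+TNF, called with TNF). All were used at 10 ng/ml. No cells without IL4 and IL13 were analysed here, so every comparison is between 2 sets of cells that both carry the M2 stimulus. Plates 2 and 3 hold mouse 1 and plates 4 and 5 hold mouse 2. Among the wells compared, IL4+IL13 lies in well rows A to H of each plate and IL4+IL13+TNF in rows I to P. Treatment and position on the plate thus cannot be told apart.

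Gbp and IRG proteins are large GTPases of cell-autonomous immunity. Interferon-gamma, acting in part through IRF1, is their classical inducer, and type I interferon induces many of them too. Gbp proteins assemble on the vacuoles of intracellular parasites and bacteria and help to open them to the cytosol and the inflammasome. IRG proteins of the GKS class, such as Iigp1, attack the vacuole membrane, while those of the GMS class, Irgm1 and Igtp, sit on the cell's own membranes and keep the GKS proteins inactive there. The Ifit genes, set beside them here, encode RNA-binding antiviral proteins and are standard markers of type I interferon.

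The windows that precede the transcription start in RefSeq (GRCm38.p6) are shown for 4 of the genes because all the genes found in the promoter table share a letter pattern there. In the windows below, which hold the 250 bases before the start from 5′ to 3′ on the strand of the gene, capitals mark matches to either GAAANNGAA (or TTCNNTTTC on the other strand), the core of the interferon-stimulated response element (ISRE), or TTCNNNGAA, the letters of a gamma-activated sequence (GAS), which reads the same on both strands. Gbp2 (chr3:142620413-142620662, plus strand) and Gbp3 (chr3:142559794-142560043, plus strand) had higher levels with TNF on every plate, while Gbp7 (chr3:142530086-142530335, plus strand) and Irgm1 (chr11:48871421-48871670, minus strand) had lower levels on every plate. Of all genes tested, 13% were higher on every plate and 22.8% were lower.
Gbp2: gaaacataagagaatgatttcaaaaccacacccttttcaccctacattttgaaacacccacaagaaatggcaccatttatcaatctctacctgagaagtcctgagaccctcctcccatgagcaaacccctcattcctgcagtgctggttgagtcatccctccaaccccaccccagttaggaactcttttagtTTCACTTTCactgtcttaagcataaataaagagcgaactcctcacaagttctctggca
Gbp3: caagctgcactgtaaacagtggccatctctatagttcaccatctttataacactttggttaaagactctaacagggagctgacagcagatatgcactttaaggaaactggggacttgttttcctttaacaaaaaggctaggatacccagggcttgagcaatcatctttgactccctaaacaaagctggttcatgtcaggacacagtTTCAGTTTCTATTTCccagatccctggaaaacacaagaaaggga
Gbp7: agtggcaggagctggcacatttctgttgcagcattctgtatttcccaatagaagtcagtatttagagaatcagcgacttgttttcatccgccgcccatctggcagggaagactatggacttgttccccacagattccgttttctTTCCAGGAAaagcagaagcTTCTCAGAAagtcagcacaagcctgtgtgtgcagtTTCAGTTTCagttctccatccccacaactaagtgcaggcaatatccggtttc
Irgm1: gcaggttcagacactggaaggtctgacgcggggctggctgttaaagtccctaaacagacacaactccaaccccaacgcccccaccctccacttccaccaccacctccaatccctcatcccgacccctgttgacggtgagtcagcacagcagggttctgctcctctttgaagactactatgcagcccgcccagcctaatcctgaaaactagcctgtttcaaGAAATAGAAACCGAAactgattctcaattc

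The promoter table held 6 of the 9 genes, and an ISRE core was found in 6 of these 6 (Gbp2, Gbp3, Gbp5, Gbp7, Irgm1 and Igtp), against 7.13% of 32851 windows of all genes. In Gbp3, for which the table lists a further start, the matches lie before the upstream start, and they overlap each other by 3 bases. The ISRE core began 58 bases before the start in Gbp2, 44 and 38 bases before it in Gbp3, 52 bases before it in Gbp7, and 30 and 24 bases before it in Irgm1. A GAS match was present in 3 of the 6 (Gbp5, Gbp7 and Igtp), against 7.02% of all windows, and no GAS match overlapped an ISRE core. The kappaB consensus, bound by NF-kappaB, the factor downstream of TNF, was searched on both strands and found in 1 of the 6, Gbp5, against 7.25% of all windows. The windows of Gbp2 and Gbp3 held no match to it. Of the 6 Ifit genes, 5 held an ISRE core, and Ifit2 held a GAS and a kappaB match instead. An ISRE core thus lay before Gbp2 and Gbp3 and also before Gbp7 and Irgm1, which passed no test. The part of these letters in the levels with TNF was not tested. Gbp8, Gbp9 and Iigp1 were not in the table.

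The genes lie in 5 places of the mouse genome (mm10, positions of the deposited table). Gbp5 (3:142493978-142522344), Gbp7 (3:142530342-142550149), Gbp3 (3:142560026-142573209) and Gbp2 (3:142620602-142638008) follow each other on the plus strand of chromosome 3. Gbp9 (5:105077630-105139539) and Gbp8 (5:105014150-105139540) share a span on the minus strand of chromosome 5. Irgm1 (11:48861968-48871683, minus strand) and Igtp (11:58199556-58207591, plus strand) lie apart on chromosome 11, and Iigp1 (18:60376027-60392634, plus strand) is on chromosome 18. Fragments were assigned over all exons of a gene, coding and untranslated. Annotated exons of Igtp share 162 bases, 8.01% of its exon length, with the neighbouring Irgm2. Those of Gbp8 and Gbp9 share 60 bases with each other, and Gbp7 shares 637 bases with the predicted gene Gm43802. The strand was not used in counting and only uniquely mapped fragments were counted, so fragments of stretches that are the same in 2 of these related genes are missing from the counts of both.

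After wells of low depth or quality were left out, 1386 of 1524 assigned wells remained. Without TNF these were 357 cells of mouse 1 and 333 of mouse 2, and with TNF 347 and 349. The kept cells held 200235 to 6122892 fragments, with a median of 477871 without TNF and 464673 with TNF. Levels below are counts per total of 1e6 fragments (CPM) in the summed cells of a mouse and treatment, or of a plate and treatment. The sums hold 162260282 to 179757666 fragments each. The macrophage marker Adgre1 (F4/80) was detected in 99.02% to 100% of cells at equal depth. Each of the 8 markers of T and NK cells, the 4 of B cells, the 4 of mast cells and basophils and the 5 of fibroblasts was under 1 CPM in every sum. So were 5 of 6 neutrophil markers, all but S100a8, which was 0.938 and 1.94 CPM without TNF and 1.59 and 4.36 CPM with it. S100a9, at most 0.868 CPM, passed the test on plate sums (edgeR adjusted p = 0.0217), which count plates of the same mouse as replicates. It missed the test with the mouse as a block (edgeR adjusted p = 0.0591). Of 10 interferon genes, 6 had no fragment in any sum, Ifng among them, where 3 fragments of the smallest sum would be 0.0185 CPM, and Ifnb1 stayed at or under 0.00616 CPM. Ifnk was the only one to reach 1 CPM, at 1.02 CPM with TNF in mouse 1. Clec4e, the most strongly TNF-induced gene of a list of 18 known TNF response genes, went from 19.6 and 22.6 CPM to 636 and 705 CPM, and was the only gene in the table past the threshold in the test by treatment alone.

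At rest on the M2 stimulus, Irgm1 led the group. Per kilobase of exon, the mean level without TNF was 38.0 ± 11.1 CPM (SD, n = 2 mice) for Irgm1, 21.9 ± 4.95 for Igtp and 13.4 ± 4.68 for Gbp2. The ranges of the 2 mice did not overlap between these neighbours in the order. Gbp3 (7.16 ± 2.64 CPM per kilobase), Gbp7 (6.55 ± 1.16) and Gbp9 (4.98 ± 0.423) followed and were not separated beyond the spread between mice. Gbp8 (1.59 ± 0.439 CPM per kilobase), Iigp1 (1.06 ± 0.437) and Gbp5 (0.0658 ± 0.0589) were low. With TNF the order changed at the top only: Gbp2 came first at 50.8 ± 24.1 CPM per kilobase, ahead of Irgm1 at 25.0 ± 0.0974 and Igtp at 18.2 ± 4.98. Gbp2 was above Irgm1 in both mice, but its spread between mice was wide.

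**Figure D1:**
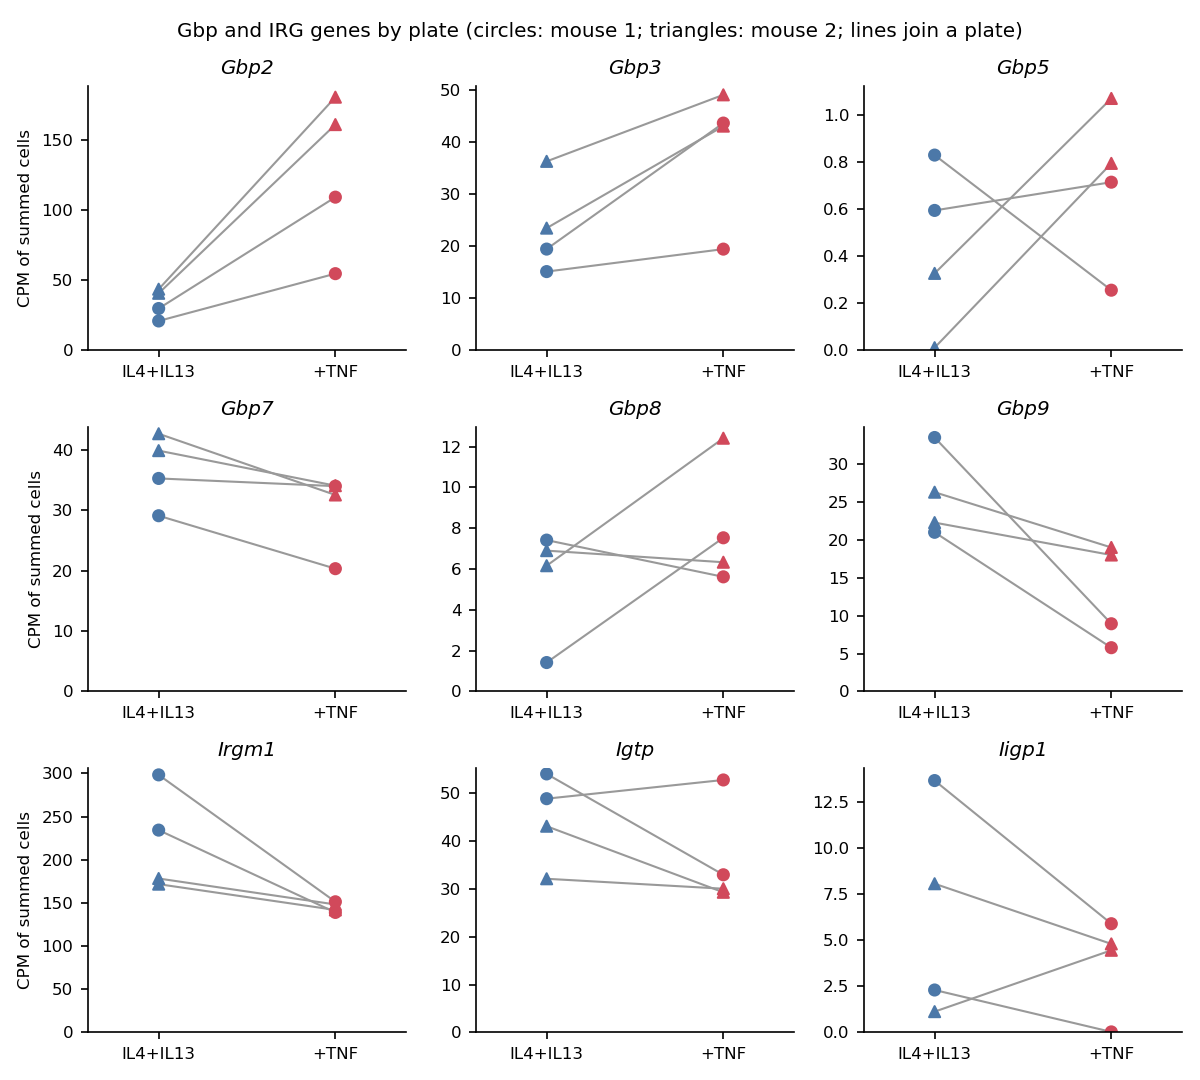
Each panel plots 1 gene, with CPM of the summed cells on the vertical axis (from 0, own scale) and treatment on the horizontal axis, and a line joins the treatments on a plate (circles for plates of mouse 1, triangles for plates of mouse 2). Gbp2 and Gbp3 go up on all 4 plates, Gbp7, Gbp9 and Irgm1 go down on all 4, and the lines of Gbp5, Gbp8, Igtp and Iigp1 cross.

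Gbp2, an interferon-inducible GTPase recruited to parasite and bacterial vacuoles, had the largest difference of the group. In the mouse sums it stood at 25.4 and 42.0 CPM without TNF and at 84.8 and 171 CPM with TNF. On plates 2, 3, 4 and 5 it was 20.98, 29.8, 40.7 and 43.6 CPM without TNF and 54.7, 109, 161 and 180 CPM with TNF. The lowest TNF plate was above the highest plate without TNF, and mouse 2 was above mouse 1 under both treatments. Plates of 2 treatments that did not overlap, with TNF higher, were found for 4.03% of all genes tested. The log2 fold change was 2.01 ± 0.427 (SE, n = 2 mice per treatment), which is 4.03-fold, with an adjusted p of 0.314 in edgeR's quasi-likelihood test by treatment alone. With the mouse as a block, which is the paired form of the same test, it was 1.97 ± 0.130 with an adjusted p of 0.00743, and DESeq2 without the block gave an adjusted p of 0.000125. Over all the fits run, its adjusted p ran from 0.000125 to 0.538 and its log2 fold change from 1.44 to 2.42.

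Gbp3, which lies next to Gbp7 and upstream of Gbp2 in the chromosome 3 cluster, followed at a smaller size. Its level was 17.3 and 29.5 CPM without TNF and 32.8 and 46.0 CPM with TNF. By plate it was 15.1, 19.4, 23.4 and 36.2 CPM without TNF and 19.4, 43.6, 43.0 and 49.0 CPM with it. Every plate went up, although the TNF wells of plate 2 were below the wells without TNF of plates 4 and 5, so the treatments overlapped. A higher level on 4 of 4 plates was seen for 13% of all genes tested. The log2 fold change was 0.85 ± 0.333 (adjusted p = 0.625, edgeR by treatment alone). The blocked fit gave 0.88 ± 0.147 with an adjusted p of 0.0451, and DESeq2 gave an adjusted p of 0.277, so the call of Gbp3 rests on the pairing by mouse.

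Across the group, none of the 8 tested genes passed an adjusted p of 0.05 in edgeR by treatment alone, where 0.00587% of all genes were called higher and 0.0% lower. At an unadjusted p under 0.05, 1 of the 8 was higher, Gbp2, and none was lower, against 3.68% of all genes higher and 4.43% lower. With the mouse as a block, 2 of the 8 rose, Gbp2 and Gbp3, against 1.94% of all genes, and none fell, against 1.88%. DESeq2 called 1 of the 8 higher, Gbp2, against 1.79% of all genes, and none lower, against 1.72%. The median log2 fold change of the 8 genes was -0.18, beside 0.0038 for all genes tested, with 3 values above 0 and 5 below. The median was 0.014 without the IL4+IL13 sum of mouse 1, and 0.27 with the block in cells with no Ccr7 fragment, so the group as a whole did not have 1 direction.

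**Figure D2:**
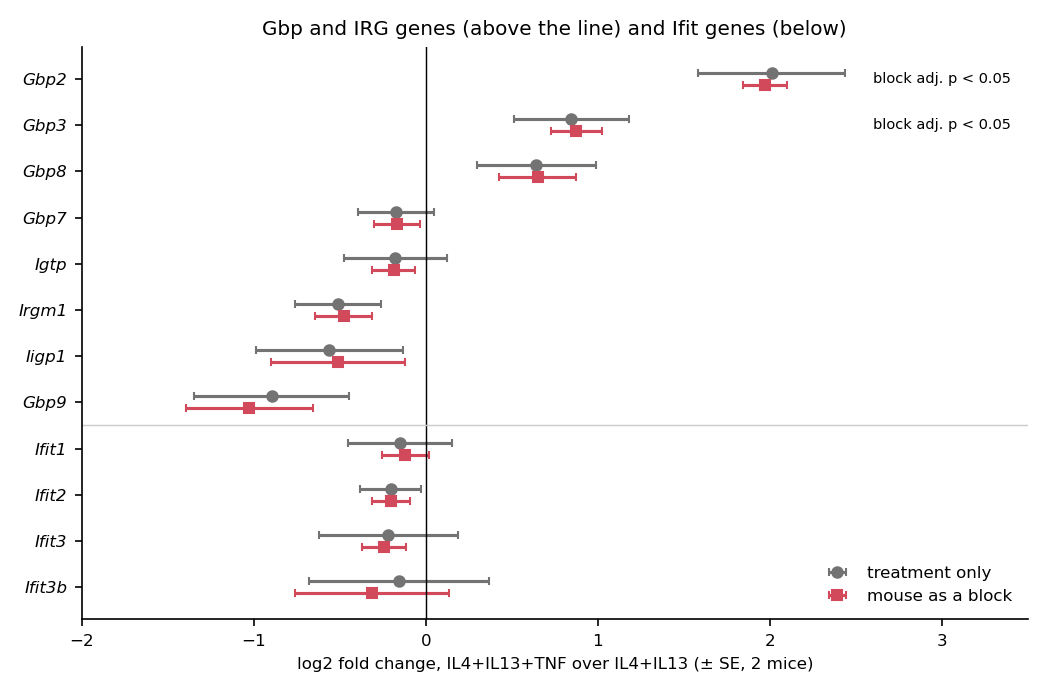
The horizontal axis is the log2 fold change with TNF, with bars of ± 1 SE over 2 mice, for the 8 tested genes of the group (above the grey line) and 4 Ifit genes (below it), by treatment alone (grey circles) and with the mouse as a block (red squares). Gbp2 and Gbp3 are the genes marked with a blocked adjusted p under 0.05, Gbp9 is the lowest at -0.90, and the Ifit genes lie between -0.15 and -0.22 in the test by treatment alone.

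The GMS genes had lower values with TNF, and neither passed the test. Irgm1, the GMS protein also known for its part in autophagy, was 266 and 175 CPM without TNF and 146 and 145 CPM with TNF. Its plates read 234, 298, 178 and 172 CPM without TNF and 139, 151, 148 and 142 CPM with it. Each plate with TNF was below every plate without it. The level without TNF differed between the mice, and the level with TNF hardly did. Plates that did not overlap, with TNF lower, were found for 7.4% of all genes tested. The log2 fold change of -0.51 ± 0.249 did not pass the test (adjusted p = 0.700 in edgeR by treatment alone and 0.182 with the mouse as a block). Igtp, the other GMS gene, was 51.5 and 37.3 CPM without TNF and 43.9 and 29.7 CPM with it, and it was lower on 3 of 4 plates with a log2 fold change of -0.18 ± 0.300 (adjusted p = 0.95 in edgeR by treatment alone).

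Gbp9 had the lowest fold change. It was 27.3 and 24.2 CPM without TNF and 7.53 and 18.5 CPM with TNF. The plate values were 21.03, 33.6, 22.3 and 26.3 CPM without TNF and 5.78, 8.94, 18.03 and 19.03 CPM with it. The treatments did not overlap, as for 7.4% of all genes tested with TNF lower. The difference was unequal between the mice, with log2 fold changes of -1.78 and -1.85 on the plates of mouse 1 and of -0.30 and -0.46 on the plates of mouse 2. For Irgm1 the same split was -0.75 and -0.98 in mouse 1 against -0.27 and -0.27 in mouse 2. With 2 mice this difference between mice was not tested. For Gbp9 the log2 fold change was -0.90 ± 0.451 by treatment alone (adjusted p = 0.718, edgeR) and -1.03 ± 0.370 in the blocked fit (adjusted p = 0.198).

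Gbp7 was lower on 4 of 4 plates, as were 22.8% of all genes tested, but by little. Its levels were 32.2 and 41.4 CPM without TNF and 27.9 and 33.3 CPM with TNF, with a log2 fold change of -0.17 ± 0.223 (adjusted p = 0.931, edgeR by treatment alone). Gbp3 and Gbp7, neighbours on chromosome 3, thus had fold changes of opposite sign. The log2 ratio of Gbp3 to Gbp7 was -0.90 and -0.49 without TNF and 0.23 and 0.47 with TNF. With Gbp3 higher and Gbp7 lower on each plate, this ratio had to be higher on 4 of 4 plates, so it restates those values. The exact two-sided permutation p over the 4 sums was 0.333, the smallest that 2 mice against 2 allow.

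The 3 remaining genes were low, and none passed the test. Iigp1, the GKS effector, was 7.99 and 4.39 CPM without TNF and 3.27 and 4.63 CPM with TNF, and its plates ran from 0.0275 to 13.7 CPM and differed in both directions within plates. Gbp8 was 4.41 and 6.55 CPM without TNF and 6.67 and 9.39 CPM with it, and was higher in both mice but on 2 of 4 plates, with log2 fold changes of 0.39 to 0.95 over all fits run. Neither passed the test with the mouse as a block (edgeR adjusted p = 0.520 for Iigp1 and 0.184 for Gbp8). Gbp5, a promoter of NLRP3 inflammasome assembly, had 26 to 168 fragments in a sum, at most 0.935 CPM, and was not tested.

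The direction of the Ifit genes was closer to that of Irgm1 than to that of Gbp2. Ifit1 was 106 and 65.6 CPM without TNF and 80.7 and 64.2 CPM with TNF, Ifit2 went from 79.9 and 90.2 CPM to 65.0 and 73.6 CPM, and Ifit3 from 63.4 and 39.1 CPM to 53.7 and 28.9 CPM. Ifit3b was 4.92 and 5.92 CPM without TNF and 6.56 and 2.53 CPM with it. Ifit1bl1 and Ifit1bl2, at most 2.41 and 3.11 CPM, were not tested. The 4 tested Ifit genes had log2 fold changes of -0.22 to -0.15 and none passed a test. Their plates were uneven, since the summed Ifit level with TNF was 81.3 CPM on plate 2, 317 on plate 3, 160 on plate 4 and 180 on plate 5. Without TNF it was 254, 261, 168 and 242 CPM, so the treatments overlapped.

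As sums, the 9 Gbp and IRG genes stood at 433 and 361 CPM without TNF and at 353 and 458 CPM with TNF. The log2 ratio of this sum to the Ifit sum was 0.75 and 0.83 without TNF and 0.74 and 1.43 with it. The mean difference of 0.30 had an exact two-sided permutation p of 1.0, and the ratio was higher with TNF on 3 of 4 plates. Without the TNF sum of mouse 2 the difference was -0.051. Without Gbp2 the difference was -0.11, and without Irgm1, the most abundant of the genes, it was 0.80. Gbp2 had the largest difference of the group, so its ratio to Ifit2 mainly restates that difference. This ratio is no test of the group against the Ifit genes. On the log2 scale it was -1.65 and -1.10 without TNF and 0.38 and 1.21 with TNF, with plate differences of 1.6 to 2.92. The exact two-sided permutation p was 0.333, the smallest possible here. The ratio of Gbp2 to Irgm1 went from -3.39 and -2.06 to -0.78 and 0.23, with a mean difference of 2.45.

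In single cells, more cells had Gbp2 and Gbp3 with TNF. For a comparison at equal depth, 339000 fragments were drawn from each cell, and 136 of 1386 cells that were shallower dropped out (25 and 24 without TNF, 44 and 43 with TNF). Gbp2 was then found in 35.5% (95% Clopper-Pearson interval 30.4% to 41.0%) and 43.4% (37.8% to 49.1%) of cells without TNF. With TNF it was found in 63.4% (57.7% to 68.8%) and 76.8% (71.7% to 81.4%). By plate the share was 31.9%, 39.2%, 35.2% and 52.4% without TNF and 57.0%, 68.0%, 73.8% and 79.5% with it. Without thinning the mean shares were 44.3% and 72.3%. Gbp3 was found in 20.5% and 29.8% of cells without TNF and in 29.7% and 45.8% with TNF, although TNF cells of mouse 1 equalled cells of mouse 2 without TNF. How many of all genes were found in more cells with TNF was not counted. Before thinning, kept cells had more genes at the median with TNF, 8161 against 7874 in mouse 1 and 7859 against 7431 in mouse 2.

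On average over the mice, the IRG regulators were found in about the same share of cells under both treatments. Irgm1 was found in 88.6% ± 5.87 (SD, n = 2 mice) of cells without TNF and in 85.2% ± 1.29 with TNF, and Igtp in 49.7% ± 13.1 and 49.1% ± 3.36. Within mice, Igtp went from 59.04% to 51.49% in mouse 1 and from 40.45% to 46.73% in mouse 2. Irgm1 went from 92.77% to 86.14% in mouse 1 and from 84.47% to 84.31% in mouse 2. Gbp7 was found in 40.1% ± 1.72 and 41.5% ± 4.59. Gbp9 was found in 31.93% of cells without TNF and 18.48% with it in mouse 1, and in 23.95% and 23.86% in mouse 2, so the share was lower in mouse 1 and about level in mouse 2. Gbp8 (11.2% and 10.99%) and Iigp1 (6.71% and 5.25%) were found in few cells, and Gbp5 in 1.82% and 3.29%. For comparison, Cd3e, Cd79a and Nkg7, which macrophages should lack, were found in at most 0.904% of the cells of a mouse and treatment. The intervals cover counting error only, in libraries without molecular identifiers, and the cells of a mouse are not replicates of a treatment, so the intervals give no test of TNF.

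**Figure D3:**
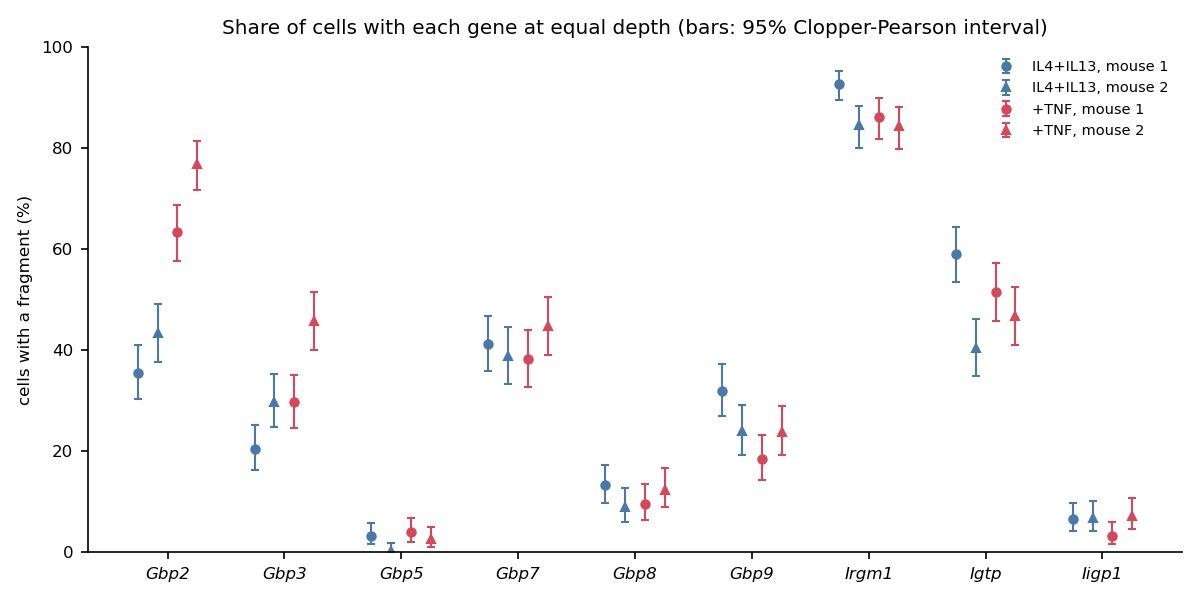
The vertical axis is the percentage of cells in which a gene had a fragment after thinning, for each of the 9 genes, by mouse (circles for mouse 1, triangles for mouse 2) and treatment (blue for IL4+IL13, red for IL4+IL13+TNF), with 95% Clopper-Pearson intervals. Gbp2 separates the treatments, Irgm1 is above 80% throughout, and Gbp5 is under 4%.

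The higher level of Gbp2 involved both more cells and more fragments per cell. In cells with any Gbp2 fragment the median was 5.95 and 11.7 CPM without TNF and 58.4 and 110 CPM with TNF. The Gbp2 signal was also spread over more cells. The top 5% of cells held 54.4% and 59.1% of the Gbp2 CPM without TNF and 39.9% and 35.8% with TNF. Irgm1 was the most evenly spread of the 9, with 20.9% to 22.9% of its CPM in the top 5% of cells in every group, while Iigp1, found mainly in isolated cells, had over 98% there, with values of 98.2% to 100%. A cell had fragments of 3 of the 9 genes at the median in each of the 4 groups, and of 2.77 to 3.44 genes on average. All 9 together were seen only in the TNF cells of mouse 2, at 0.327% of cells.

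Cells with a high Ifit level had more of most Gbp and IRG transcripts, and the difference of Gbp2 with TNF was present in cells of either kind. Cells with a summed Ifit level of at least 100 CPM made up 38.4% and 37.2% of cells without TNF and 20.2% and 35.2% of cells with TNF. The cut divides a continuous range, with 61 to 108 cells of each group between 50 and 200 CPM. In cells at or above it, Gbp2 was 41.3 and 68.7 CPM without TNF and 187 and 215 CPM with TNF. In the cells below the cut it was 14.5 and 26.9 CPM without TNF and 58.4 and 147 CPM with it. Thus the log2 fold changes of Gbp2 were 2.16 and 1.64 in Ifit-high cells and 1.97 and 2.43 in the rest.

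Gbp3 also went up on both sides of the cut, from 28.4 and 42.7 CPM to 97.2 and 73.3 CPM in Ifit-high cells and from 9.68 and 21.9 CPM to 16.1 and 31.7 CPM in the rest. Irgm1 was lower with TNF on both sides, at 394 and 249 against 268 and 234 CPM in Ifit-high cells and at 179 and 133 against 114 and 98.3 CPM in the rest. Igtp and Gbp7 in Ifit-high cells went up in mouse 1 and down in mouse 2. Over the 4 groups, the mean level in Ifit-high cells exceeded that in the rest by 1.04 on the log2 scale for Gbp2, 1.58 for Gbp3, 1.67 for Gbp7, 1.16 for Gbp9, 1.12 for Irgm1, 1.54 for Igtp and 3.36 for Iigp1. Gbp5 and Gbp8 were the exceptions, at -0.20 and -0.19.

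**Figure D4:**
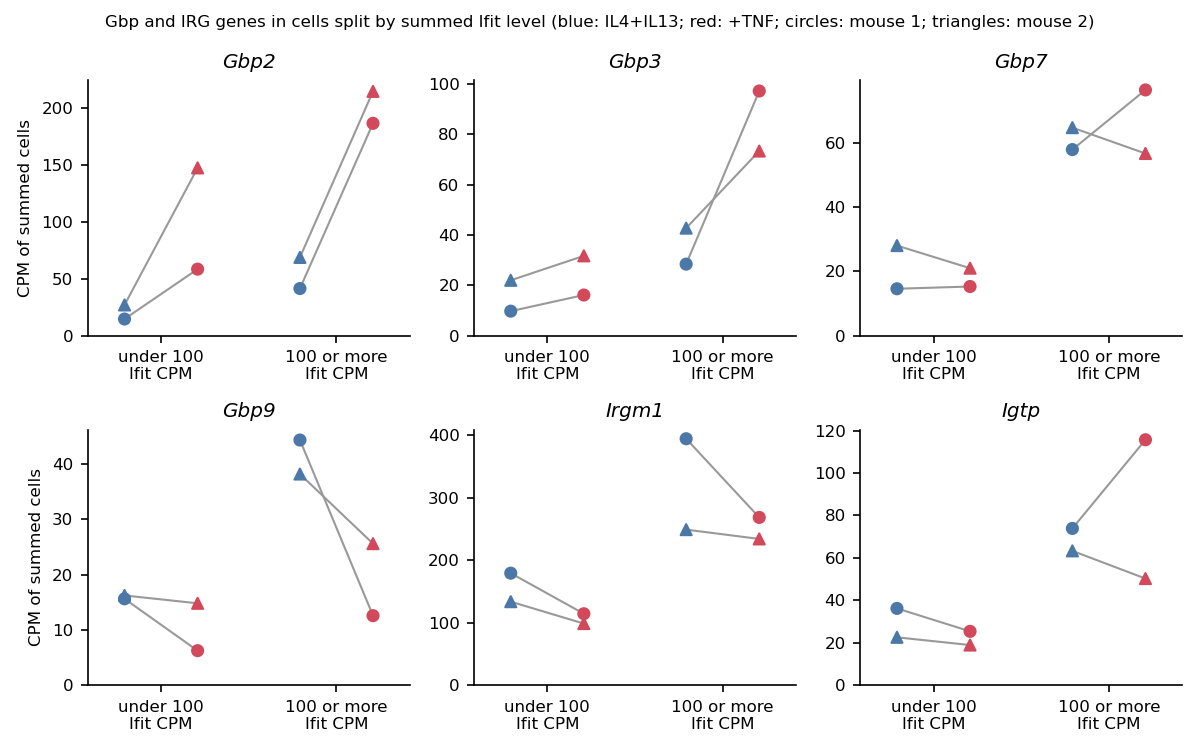
Each panel plots the CPM of 1 gene in the summed cells under 100 CPM of Ifit genes (left pair) and at or above it (right pair), without TNF in blue and IL4+IL13+TNF in red, circles for mouse 1 and triangles for mouse 2, and the vertical axis from 0. Gbp2 goes up with TNF in both pairs, Irgm1 goes down in both, and all 6 genes shown are higher on the right in most groups.

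Across cells of 1 mouse and treatment, the genes varied together only loosely. The mean Spearman rank correlation of the 36 pairs had a median of 0.0788 (range 0.0199 to 0.272), averaged over the 4 groups of 303 to 332 cells at equal depth. These values are a description, since the cells of a group share a mouse and plates. The closest pairs were Irgm1 with Igtp (0.272), Gbp2 with Gbp3 (0.272) and Gbp3 with Gbp7 (0.258). Pairs on the same chromosome had a median of 0.187 (8 pairs) and pairs on different chromosomes 0.0695 (28 pairs). The Gbp2 to Gbp3 value was 0.175 and 0.139 without TNF and 0.350 and 0.423 with TNF.

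The genes differed in how closely they tracked the summed Ifit genes. The mean rank correlation was 0.336 for Irgm1, 0.306 for Igtp, 0.247 for Gbp7 and 0.218 for Gbp3. It was 0.151 for Gbp9, 0.141 for Iigp1, 0.115 for Gbp2, 0.0729 for Gbp8 and 0.033 for Gbp5. Of these 5, Gbp2 was the one found in most TNF cells. Among 14099 other genes found in at least 10% of cells, the 10 closest to the summed Gbp and IRG counts were Ifi47 (0.342), Ifit1, Ifit3, Ifi204, Rtp4, Xaf1, Ifit2, Ifi211, Rnf213 and Ifi209 (0.284), against a median near 0 of 9.47e-05 and a 99th percentile of 0.129. Irgm1 gave 46.4% of the fragments in that sum. Ifi47 is itself an IRG gene (Irgd), and all 10 are known interferon-inducible genes.

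**Figure D5:**
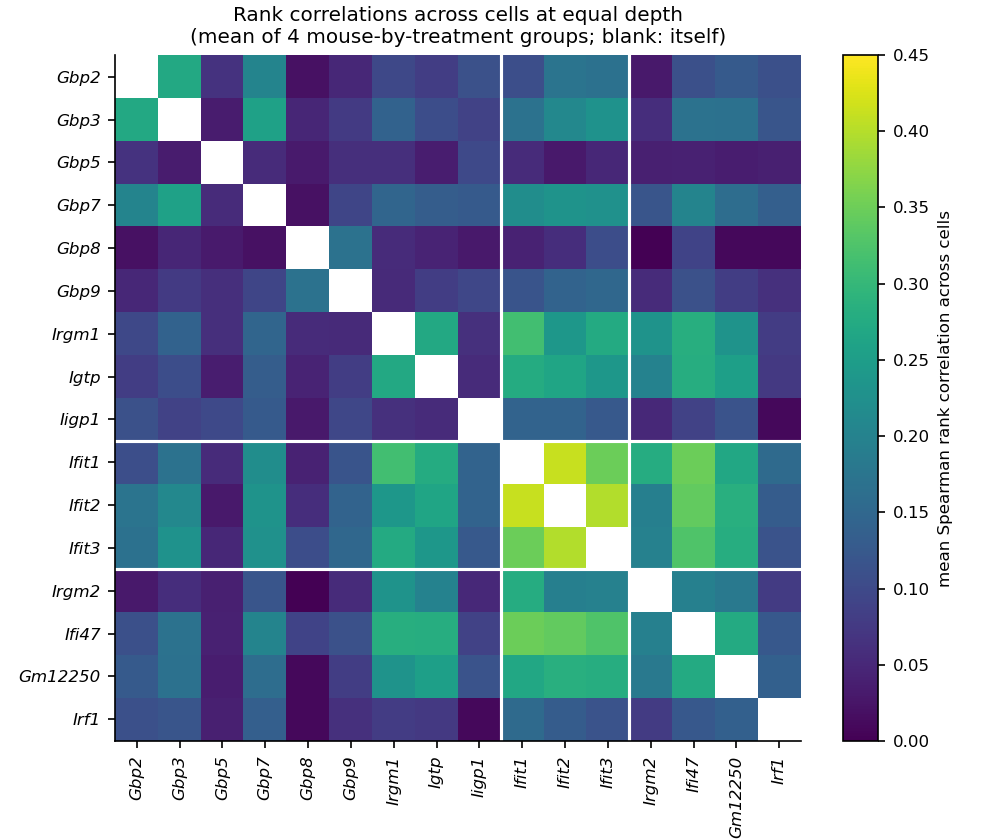
The colour gives the mean Spearman rank correlation across cells, at equal depth, averaged over the 4 mouse and treatment groups, for the 9 Gbp and IRG genes, 3 Ifit genes and 4 further interferon genes (white lines part the sets). Irgm1 and Igtp form a bright block with the Ifit genes, and Gbp2 is brightest with Gbp3 (0.272) and Gbp7 (0.203).

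Among 17 related GTPases outside the group, 14 were tested. With the mouse as a block, 1 of the 14 rose, against 1.94% of all genes, and none fell, against 1.88%. This was Gbp6, on chromosome 5, at 1.49 and 1.44 CPM without TNF and 5.02 and 5.41 CPM with it (log2 fold change 1.92 ± 0.328, adjusted p = 0.232 in edgeR by treatment alone and 0.0308 with the mouse as a block). On plate sums with the plate as a term Gbp6 missed the threshold (adjusted p = 0.0557, edgeR). Gbp6 shares 29.0% of its exon length with the predicted gene Gm43302, so its count misses fragments from there. Gbp10 had a log2 fold change of 2.30 and Gbp11 one of 3.24, both from under 1 CPM, and neither passed the blocked test (adjusted p = 0.0661 and 0.162, edgeR). DESeq2 called 2 of the 14 higher, Gbp6 (adjusted p = 1.04e-05) and Gbp11 (adjusted p = 0.0327), against 1.79% of all genes. It called none lower, against 1.72%. The value of Gbp11 rests on mouse 2 (0.197 to 0.369 CPM in mouse 1, 0.228 to 3.44 CPM in mouse 2) and ran from 0.90 to 4.09 over all fits run. Gbp4 had a log2 fold change of -2.59, also from mouse 2 (6.06 to 0.517 CPM, against 0.298 to 0.462 CPM in mouse 1), with an adjusted p of 0.724 in edgeR by treatment alone. The most abundant relatives were the IRG genes Ifi47 (-0.16), Irgm2 (-0.35), Gm12250 (0.08) and Gm4951 (-0.88), given here as log2 fold changes by treatment alone, with adjusted p values in edgeR of 0.714 or more. The median of the 14 was -0.18, the same as for the group itself to 2 decimals.

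The upstream genes were not uniform. Of 15 genes of interferon receptors and signalling, 1 rose in the blocked test, against 1.94% of all genes. It was Jak2, the kinase of the interferon-gamma receptor (27.3 and 48.9 CPM to 44.98 and 103 CPM, log2 fold change 0.99 in the blocked edgeR fit, adjusted p = 0.0295). Irf1 was 75.7 and 131 CPM without TNF and 75.5 and 178 CPM with it. Irf1 thus differed more between the mice than between the treatments. Ifngr1, Ifngr2, Jak1 and Irf8, the most abundant of the list, had log2 fold changes by treatment alone of 0.24, 0.59, -0.08 and 0.09. None passed by treatment alone or with the block. Ifngr2 did on plate sums with the plate as a term (edgeR adjusted p = 0.0106), which count plates of the same mouse as replicates.

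Other interferon-gamma target genes had fold changes above 0. All 12 tested of 15 did, beside 8580 of all 17034 genes tested. Their log2 fold changes by treatment alone ran from 0.07 to 4.28, with a median of 0.45. The direction was not uniform in plain CPM, where Ciita, Nlrc5, Psmb9 and Tap2 had opposite signs in the 2 mice. The mean CPM of Ciita (40.8 to 40.7) and Nlrc5 (34.7 to 34.2) was slightly lower with TNF. In the blocked test 4 passed, against 1.94% of all genes called higher: Cd274, Psmb10, Tapbp and B2m. Cd274 (PD-L1) was 27.9 and 41.8 CPM without TNF and 84.5 and 103 CPM with it (adjusted p = 0.0107 with the mouse as a block, edgeR), Tapbp 357 and 446 against 639 and 740 CPM, and B2m 11802 and 13262 against 14860 and 17367 CPM. Psmb8, also abundant, was 367 and 328 against 428 and 460 CPM and missed the blocked threshold (adjusted p = 0.0944, edgeR). Of 25 type I interferon genes, 17 lay below 0, beside 8454 of all genes tested, with a median of -0.14. None passed the blocked test, and the most abundant, Rtp4, Bst2, Oasl2 and Trim30a, were at -0.37, 0.48, -0.39 and -0.30. The plates of 7 of the 25 did not overlap with TNF lower, against 7.4% of all genes. With TNF higher this held for 1, against 4.03%. On 4 of 4 plates 11 were lower, against 22.8% of all genes, and 1 was higher, against 13%. Of 18 partners of the GTPases in autophagy and pyroptosis, 2 rose in the blocked test, the autophagy receptor Sqstm1 (p62, 604 and 636 to 1000 and 957 CPM) and the pore protein Gsdmd (116 and 107 to 192 and 186 CPM). Gabarap, Rnf213 and Map1lc3b, also abundant there, had log2 fold changes of 0.07, -0.14 and -0.29. Of the 18 TNF response genes, all lay above 0 and 14 rose in the blocked test, among them Nfkbia, Sod2 and Tnfaip2.

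Of the tested markers of other cells, Ccr7 alone passed with the mouse as a block (edgeR adjusted p = 0.00555), against 1.94% of all genes called higher. It did not pass by treatment alone (edgeR adjusted p = 0.241). Of 6 dendritic cell markers, Flt3 was at 6.94 to 7.36 CPM, Xcr1 and Clec9a were under 1 CPM, and Siglech went from 0.724 and 2.07 CPM to 0.0 and 0.0223 CPM. Zbtb46 went from 0.331 and 3.12 CPM to 1.38 and 6.55 CPM, and Ccr7, which mature myeloid cells express, went from 0.112 and 0.45 CPM to 20.5 and 190 CPM. The 6 summed were 8.56 and 12.9 CPM without TNF and 29.9 and 204 CPM with it. Gbp2 in cells with no Ccr7 fragment was 26.7 and 38.3 CPM without TNF and 84.1 and 175 CPM with it, so its difference was as large there (log2 fold change 2.02 ± 0.173, adjusted p = 0.0259, edgeR with the block). Gbp3 in these cells was 17.7 and 28.2 CPM without TNF and 35.5 and 51.7 CPM with it (adjusted p = 0.0494). This selection was chosen after the values were seen. Among the macrophage markers, Lyz2 and C1qa rose and Fcgr1 and Mertk fell in the blocked test. The part of these markers in the differences of the Gbp and IRG genes was not tested.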

How the data were processed

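Single BMDMs were measured by Smart-seq2, without molecular identifiers. The authors deposited a table of raw counts of fragments per gene and well, aligned to mm10 with gsnap, Ensembl 98, uniquely mapped, assigned without strand by featureCounts 1.6.3. The table also has 8 columns with names that fit no sample, left unused, and 4 samples lacking a mouse in their labels were put in no group. Spike-in rows (92) were left out of totals and tests.

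Wells more than 3 median absolute deviations from the plate median (low total, few genes, high mitochondrial or spike-in share) were left out. For each mouse and treatment, counts of kept cells were added up and compared in edgeR 4.0.16 (quasi-likelihood, TMM, Benjamini-Hochberg, threshold 0.05) on genes found in at least 5% of cells of a treatment that pass filterByExpr, by treatment alone. Printed CPM use plain totals, and log2 fold changes per plate or per Ifit side add 0.5 CPM. Library size in place of TMM moves the median of all genes from 0.0038 to -0.089. The mouse numbers pair the samples, since both treatments of a number come from the same animal. Deviations from the treatment mean were correlated between the treatments of mouse 1 (r = 0.568, 17034 genes). Both treatments of a mouse also share its plates, so this value cannot tell the animal from the plates. Alternatives were the mouse block, DESeq2 1.42.0, limma 3.58.1, other cell and gene filters, plate sums and leaving out each sum. Plate sums count plates of the same mouse as replicates, so their p-values do not measure the spread between mice. The fits were tested on simulated data. With no difference between mice, either fit found all of the larger changes put in and a minority of the smaller ones. With a difference shared by both treatments of a mouse, the fit by treatment alone found none. The blocked fit then found nearly all of the larger changes and a minority of the smaller ones. A shared difference is what the block removes, so this does not show which fit suits these data. The study describes 2 independent experiments without tying them to the mice. The spread between 2 animals that p-values of the mouse sums measure may thus also be one between experiments. Each of the 9 genes and the Ifit genes is named, as are up to 4 tested genes of highest CPM of each other list of pathway genes, list genes past the threshold by treatment alone, and the 10 genes closest by rank correlation. Gbp4, Gbp6, Gbp10, Gbp11, Jak2, Cd274, Gsdmd, Irf1, Ciita, Nlrc5, Psmb9, Tap2 and the cell type markers were named after their values were seen. One gene of the interferon signalling list is not reported here. The genes and lists were chosen with earlier results of these data known.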

Additional observations from a re-analysis of the deposited data

Results flagged for a closer look

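In a group of 4 plates, the highest or lowest plate was singled out where its gap to the next, as a share of the range, passed Dixon's 95% critical value, which chance does in about 1 in 20 groups. It happened in 3 of the 30 groups of 4 plates of Gbp, IRG and Ifit genes. Gbp7 with IL4+IL13+TNF was 20.3 CPM on plate 2, below the other plates at 32.5 to 34.1 CPM. Igtp with IL4+IL13+TNF was 52.8 CPM on plate 3, above the others at 29.3 to 33.0 CPM. Ifit2 with IL4+IL13 was 103 CPM on plate 5, above the others at 78.8 to 81.1 CPM.

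Wells labelled with IL4+IL13 and without a mouse were in no comparison, and 3 of them had a column in the table. They lie in row P, among the wells with TNF. The wells of plates 3, 4 and 5 had 10802, 11121 and 8314 genes detected, against medians of 7431 to 8161 in kept cells. The summed Gbp and IRG level was 147 CPM in the well of plate 3 (41 fragments of 279461), 361 CPM in that of plate 4 (128 of 354874) and 745 CPM in that of plate 5 (65 of 87198), each above the level that 3 fragments would give. Gbp2 was 46.5, 141 and 138 CPM in them and Irgm1 was 78.7, 124 and 608 CPM.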

How the results depend on the processing

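The number of genes called in the table was 1 by treatment alone and with library size, no gene filter, either other cell filter or cells with no Ccr7 fragment. It was 598 with DESeq2, 0 with limma on mean CPM per cell (1532 at an unadjusted p under 0.05) and 651 with the mouse as a replicate block. Plate sums with the plate as a term, which count plates of the same mouse as replicates, gave 1682. The block in cells with no Ccr7 fragment gave 322. Leaving out each sum in turn gave 4 to 30 genes. The count of Gbp and IRG genes called went from 0 to 1 with DESeq2 (Gbp2) and to 2 with the block, with plate sums and with the block in cells with no Ccr7 fragment. The replicate block changed no other call of the 9 genes or of the Ifit genes.

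The median log2 fold change of the group was -0.27 with library size, -0.074 in cells with no Ccr7 fragment and 0.27 there with the block, where Iigp1 was at 0.62, and -0.20 to 0.014 when each sum was left out. The difference between the Gbp and IRG sum and the Ifit sum was 0.80 without Irgm1 (leaving out genes of the group, like the choice of cells with no Ccr7 fragment, was added after the data were seen), and the gain of cells with any of the 9 genes was 4.21 percentage points at 5 or more fragments, beside 1.24 at 1 or more. The lower share of Ifit-high cells with TNF (-10.1 percentage points) and the median rank correlation moved by less than the spread between replicates in every alternative run.

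Genes near 0 changed sign. In cells with no Ccr7 fragment, Ifit3b was 0.31 (0.23 with the block), Ifit1 0.010 with the block, and Irf8 -0.19 with and without it. With library size, Gm12250 was -0.014 and Gabarap -0.027, and with limma Irf8 was -0.060 and Gabarap -0.027. When each sum was left out, Gbp7 ran from -0.34 to 0.0076, Igtp from -0.50 to 0.089, Ifit1 from -0.46 to 0.25, Ifit3 from -0.75 to 0.18, Ifit3b from -1.02 to 0.38, Gm12250 from -0.082 to 0.25, Trim30a from -0.68 to 0.0065, Jak1 from -0.32 to 0.18, Irf8 from -0.24 to 0.36, Gabarap from -0.032 to 0.17 and Rnf213 from -0.43 to 0.10. These fits give the treatment left with 1 sum the spread of the one with 2. The cause of these moves was not tested. With 2 mice, no permutation test here can go below 0.333, and no position effect can be separated from treatment.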
